A study of Drosophila melanogaster with 24 samples.

Results

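The change in gene expression that followed rotenone feeding was compared between 2 sampling days in whole adult *Drosophila*, to find the genes and functions whose change reversed from the first day to the second. The comparison used 12 of the 24 samples of the series, 3 libraries in each of 4 groups of w1118 flies. The CTRL group was fed DMSO, the solvent, and the PD group was fed rotenone for 7 days from day 7 after eclosion, and samples of both were collected at experimental day 7, when the flies were 14 days past eclosion. The CWOFP group (controls without faecal microbiota transplantation, FMT) and the PWOFC group (rotenone for the first 7 days, then no FMT) were kept for 7 more days on yeast-glucose medium and collected at experimental day 14, when they were 21 days past eclosion. For those last 7 days the study's methods name no rotenone, so PWOFC flies had a history of rotenone while PD flies were taken at the end of the feeding. The protocol gives 250 µM rotenone. Each bottle was set up with male and female flies in equal number, and the RNA came from pools of whole flies of both sexes.

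Rotenone blocks complex I of the mitochondrial respiratory chain and is fed to flies to produce a model of Parkinson's disease. In a whole adult female the ovary is a large source of RNA. Its follicle cells make the vitelline membrane and the chorion, the inner and outer layers of the eggshell, while the fat body and the follicle cells secrete yolk proteins into the egg, and production of both follows feeding on protein. The gut makes the digestive enzymes, among them the Jonah family of serine proteases and the maltases. The RNAs roX1 and roX2 coat the male X chromosome in dosage compensation and are made almost only by males, so that the level of lncRNA:roX1 serves as a readout of the share of male RNA in a pool.

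The 12 libraries held between 17920498 and 29165130 counts assigned to genes. Of 17611 genes in the table, 12817 had enough counts to be tested. The study's methods call the 3 libraries of a group biological replicates, and the labels do not say whether they came from separate bottles, so that p-values measure the spread between these libraries. CTRL replicate 2 and CWOFP replicate 3 stood apart from the other libraries of their groups. The Turandot stress gene TotA was at 2362 CPM (counts scaled to the library size) in CTRL replicate 2 and at 61.8 and 23.5 CPM in CTRL replicates 1 and 3, and the flight muscle actin Act88F was at 231.7 CPM in CWOFP replicate 3 and at 117.4 and 21.1 CPM in CWOFP replicates 1 and 2. Markers of nervous tissue, muscle, gut, fat body and both germlines were all detected, and none of them was at 0 in every library.

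The effect of rotenone went in opposite directions on the 2 days for a large share of the transcriptome. The interaction, defined as the log2 fold change of PWOFC against CWOFP on day 14 minus that of PD against CTRL on day 7, was called for 4760 of 12817 genes (37.1%) at an adjusted p under 0.05 (edgeR quasi-likelihood test, Benjamini-Hochberg adjustment over all genes tested, n = 3 per group). It was higher than 0 for 2997 genes (23.4%) and lower than 0 for 1763 (13.8%), 2871 genes had an interaction beyond 1 on the log2 scale, and 6536 had an unadjusted p under 0.05. A gene was counted as reversed where the interaction was called and the fitted effects of the 2 days had opposite signs. This held for 4710 genes (36.7%), of which 2966 were lower in PD than in CTRL and higher in PWOFC than in CWOFP, and 1744 were higher in PD and lower in PWOFC. Only 50 called genes had effects of the same sign on both days.

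The 2 days did not contribute equally. On day 7 alone, 1957 genes (15.3%) passed the test, 463 higher and 1494 lower in PD than in CTRL. On day 14 alone, 234 genes (1.83%) passed, 178 with PWOFC above CWOFP and 56 with PWOFC below. Of the reversed genes, 79 were called on both days, 1743 on day 7 only, 99 on day 14 only and 2789 on neither, so that for most of them the change between days passed the test while the single-day effects did not. The 3 libraries of each group did not overlap on either day, with opposite direction on the 2 days, in 1935 genes (15.1%), against 118 genes with no overlap and the same direction. Over all 12817 genes, 80.1% of the fitted effects had opposite signs on the 2 days, with Pearson's r = -0.51 and Spearman's rho = -0.67 across genes, which are not independent and whose values on each day share 6 libraries.

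**Figure D1:**
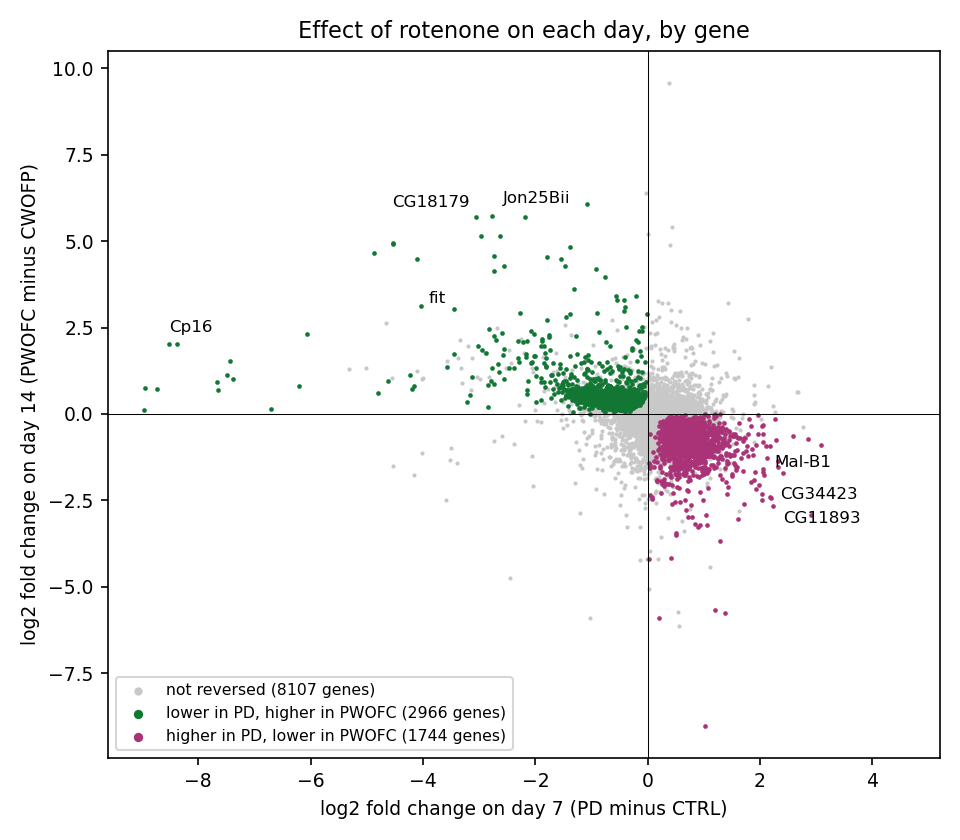
The log2 fold change of PD against CTRL on day 7 (horizontal axis) and of PWOFC against CWOFP on day 14 (vertical axis) for each of 12817 genes, 1 point per gene. The 2966 green points, lower in PD and higher in PWOFC, fill the upper left, and the 1744 purple points, higher in PD and lower in PWOFC, fill the lower right.

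The reversed genes of the 2 directions differed in level. Genes lower in PD and higher in PWOFC had a median of 60.7 CPM, with a median effect of -0.56 on day 7 and 0.38 on day 14 on the log2 scale. Genes higher in PD and lower in PWOFC had a median of 8.86 CPM, with median effects of 0.67 and -0.75, and all genes tested had a median of 21.6 CPM. The X chromosome had 39.2% of its 2035 tested genes reversed, and the large autosomal arms had 35.5% to 37.3%. The share of X-linked genes lower in PD and higher in PWOFC was 28.5%, against 21.8% to 22.7% on those arms. None of the 19 mitochondrial genes tested was reversed, and 5.26% of them were in the fit with the roX1 covariate described below.

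Transcripts that differ between the sexes moved between the groups as well. The level of lncRNA:roX1 was 6.65, 6.52 and 6.42 log2 CPM in the CTRL libraries and 7.02, 6.81 and 7.08 in the PD libraries, so that PD was higher without overlap. On day 14 it was 5.71, 6.49 and 6.22 log2 CPM in CWOFP and 5.47, 6.36 and 5.90 in PWOFC, where the groups overlapped. The interaction of roX1 itself was -0.66 ± 0.32 (SE), adjusted p = 0.11, and that of roX2 was -1.21, adjusted p = 0.033. The summed yolk proteins Yp1, Yp2 and Yp3, which only females make in quantity, separated the groups in a crossed pattern. They were at 14.5, 13.9 and 14.6 log2 CPM in CTRL and at 14.7, 14.8 and 14.5 in PWOFC, against 12.7, 12.9 and 12.6 in PD and 13.3, 13.4 and 12.4 in CWOFP. The summed 4 markers of the male germline had a median of 740 CPM in PD, 453 in CTRL, 440 in CWOFP and 235 in PWOFC. The summed 4 markers of the male accessory gland went the other way. Their medians were 189.2 CPM in PD, 376.7 in CTRL, 311.5 in CWOFP and 369.9 in PWOFC. Of these markers Acp36DE was called higher at 1.40 and SP lower at -1.66, so transcripts of males did not move as 1 set. In pools of whole flies, fewer cells of a type, fewer flies of a sex and less RNA per cell cannot be told apart.

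**Figure D2:**
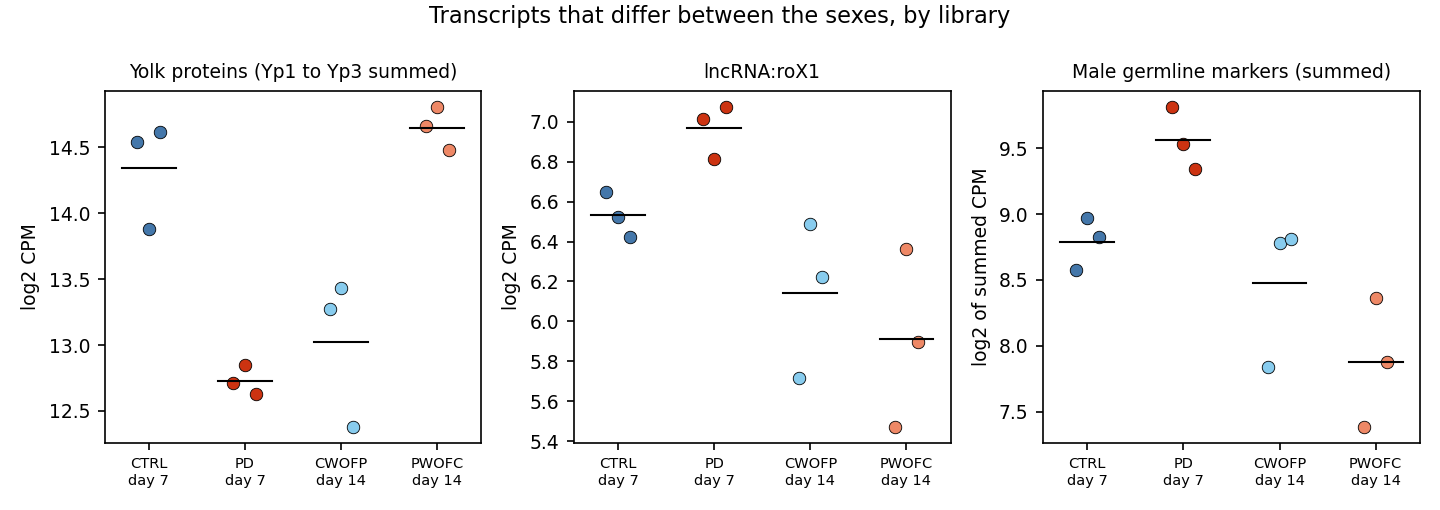
Levels of summed yolk proteins (log2 CPM), of lncRNA:roX1 (log2 CPM) and of 4 summed male germline markers (log2 of summed CPM) in each library, with 1 point per library and a line at the mean of each group. Yolk proteins were high in CTRL and PWOFC and low in PD and CWOFP, roX1 was highest in PD, and the male germline markers were highest in PD and lowest in PWOFC.

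With roX1 log2 CPM as a covariate, fewer genes passed the test but the direction was kept. The interaction was called for 1671 of 12816 genes (13.0%), 1134 higher (8.85%) and 537 lower (4.19%), and 4765 genes had an unadjusted p under 0.05. With single libraries left out, these calls ranged from 14 (without PD replicate 2) to 4304 (without CTRL replicate 2). Reversal was found for 1659 genes (12.9%), 1127 lower in PD and higher in PWOFC and 532 in the other direction. Of the 4710 genes reversed without the covariate, 1567 (33.3%) were also reversed with it, which was 94.5% of the genes reversed with it, and the sign of the interaction changed for 0 of the 4710. Among these genes the absolute interaction was 0.970 times (median) that without the covariate, while its standard error was 1.22 times as large. All 79 genes called on both days were reversed with the covariate too. The effects of a single day lost calls unevenly, from 1957 to 74 on day 7 and from 234 to 155 on day 14.

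**Figure D3:**
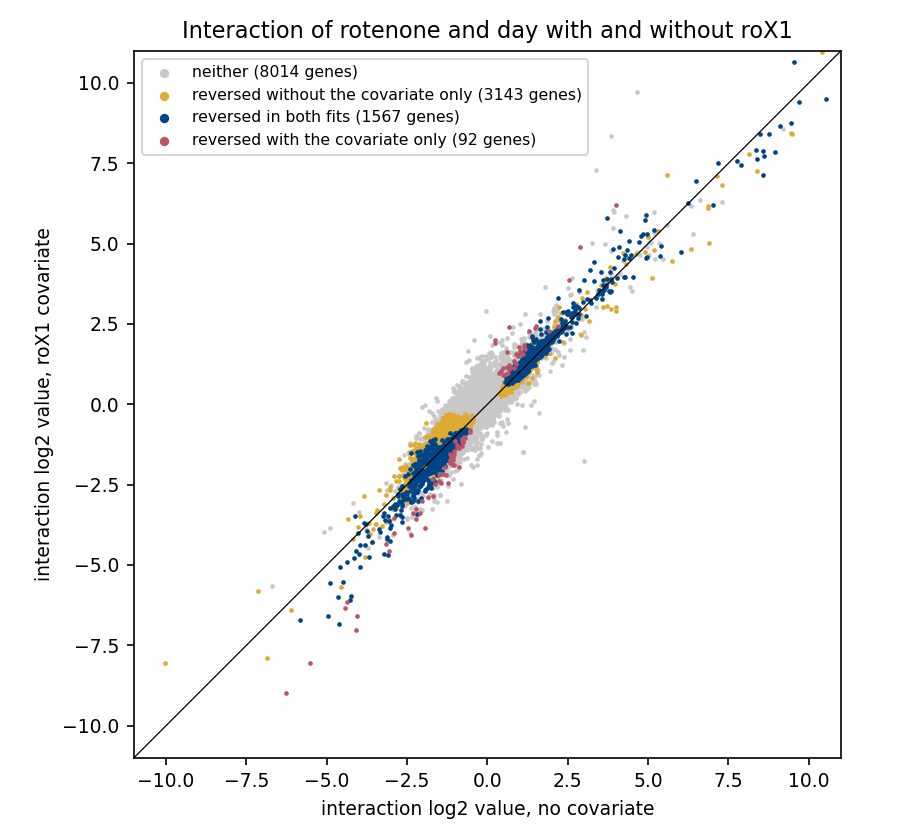
The interaction of each gene without (horizontal axis) and with (vertical axis) roX1 log2 CPM as covariate, both in log2 units. The points lie along the line of equal values, and of 4710 genes reversed without the covariate 1567 were also reversed with it.

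The number of calls rested on the covariate and on single libraries. With the summed yolk level as covariate in place of roX1, 0 genes passed in edgeR (355 at an unadjusted p under 0.05). The absolute interaction of the reversed genes was then 0.371 times and its standard error 2.91 times that without covariate, and the sign was kept by 3565 of the 4710 (75.7%). The yolk level follows the same crossed pattern as the interaction and its 3 genes are themselves among the reversed genes, and its part in the other results cannot be told apart from the interaction. Without PD replicate 1 the count fell to 1676 (886 higher and 790 lower), and with all 18 libraries of the table in 1 fit it was 363. When the day 14 groups given FMT took the place of those without FMT, a setting chosen after the data were seen, 18 genes were called and 16 were reversed (1302 at an unadjusted p under 0.05), all 16 of them among the 4710. The sign was kept by 4692 of the 4710 (99.6%), at 0.703 times (median) the absolute interaction, but both fits share the day 7 libraries. The roX1 level was 14.8, 83.5 and 93.3 CPM in the controls given FMT. It was 111.9, 26.2 and 40.3 CPM in the rotenone flies given FMT. The part of this spread in the counts with the FMT groups or with 18 libraries was not tested. Upper-quartile scaling moved the median interaction of all genes by -0.377 and gave 4365 calls, of which 1276 (29.2%) were higher, against 63.0% by TMM, so that the split between the directions depends on the scaling.

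The genes of the eggshell and the yolk reversed together. All 9 vitelline membrane genes were called higher (against 23.4% of all genes), with a median effect of -2.14 on day 7 and 1.95 on day 14, and all 9 also with the roX1 covariate. The same was true of all 4 genes of the yolk list, Yp1, Yp2, Yp3 and fit, with medians of -1.90 and 1.66. The vitelline membrane gene Vm32E (chromosome 2L, 11171167 to 11171665 in dm6 coordinates) was at 192.6, 241.6 and 211 CPM in CTRL and fell to 44.3, 15.2 and 39.9 CPM in PD. On day 14 it was at 49.0, 55.3 and 41.3 CPM in CWOFP and at 184.5, 314.4 and 136.7 CPM in PWOFC. The groups did not overlap on either day, PD and CWOFP were at like levels, and so were CTRL and PWOFC. Its interaction was 4.83 ± 0.53 (SE, n = 3 per group), adjusted p = 0.0012.

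Yolk protein Yp2 (X, 10050951 to 10052636) was among the most abundant transcripts and followed the same course. It was at 9893, 6483 and 10270 CPM in CTRL, 2775, 2591 and 2281 CPM in PD, 4111, 4283 and 2336 CPM in CWOFP and 10970, 12000 and 10200 CPM in PWOFC. The interaction was 3.43 ± 0.34, adjusted p = 0.0012, and 3.44 with the roX1 covariate, adjusted p = 0.0066. The fat-body gene fit, which encodes a secreted peptide made mainly by females and induced by feeding on protein, was at 105.5, 46 and 57.8 CPM in CTRL and at 4.26, 9.85 and 5.01 CPM in PD. On day 14 it was at 3.35, 11.04 and 5.59 CPM in CWOFP and at 54.5, 45.9 and 63.1 CPM in PWOFC. Its interaction of 6.48 ± 0.66 (adjusted p = 0.0012) was one of 4 among the 24 genes with the highest and lowest interaction that stayed called with the FMT groups, at 5.88 and an adjusted p of 0.026.

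The chorion genes held the highest interaction of the genes named by rule and also a wide spread between libraries. Of 9 chorion genes 4 were called (against 37.1% of all genes), which are Cp16, Cp18, Cp19 and Cp7Fa, and the list had a median of -4.56 on day 7 and 1.75 on day 14. Cp16 (3L, 8731944 to 8732599) was at 455.3, 20.4 and 602.4 CPM in CTRL, 1.02, 0.84 and 1.05 CPM in PD, 84.6, 123.2 and 112.9 CPM in CWOFP and 873, 204.2 and 226.6 CPM in PWOFC. The effect was -8.52 on day 7 and 2.02 on day 14, the latter with an adjusted p of 0.19, and the interaction was 10.55 ± 1.59, adjusted p = 0.0053. Its neighbour Cp19 had an interaction of 8.95, and dec, an X-linked gene for a structural protein of the eggshell, had 4.94 ± 0.88, adjusted p = 0.007. The gene dec was at 746 to 1512 CPM in CTRL and 66.4 to 282.6 in PD, and at 128.4 to 448.9 CPM in CWOFP and 781.3 to 2096 CPM in PWOFC.

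Genes of the ovarian germline moved in the same direction by a smaller amount. Of 31 tested, 23 were called higher (against 23.4% of all genes) and 1, grk, which encodes the ligand that patterns the egg, was called lower at -0.47. The medians were -0.86 on day 7 and 0.46 on day 14. The gene otu, which germ cells need to form an egg chamber, was at 401.3, 213.8 and 404.2 CPM in CTRL, 90.4, 130.4 and 133.8 CPM in PD, 228.3, 292.6 and 241.7 CPM in CWOFP and 492.1, 505.2 and 346.9 CPM in PWOFC, with an interaction of 2.34 ± 0.35, adjusted p = 0.0036. The maternal patterning gene osk had 2.77 and vas, a helicase of the germ plasm, had 2.01. With the roX1 covariate 15 of the 31 were called higher, and without PD replicate 1 the count was 14.

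**Figure D4:**
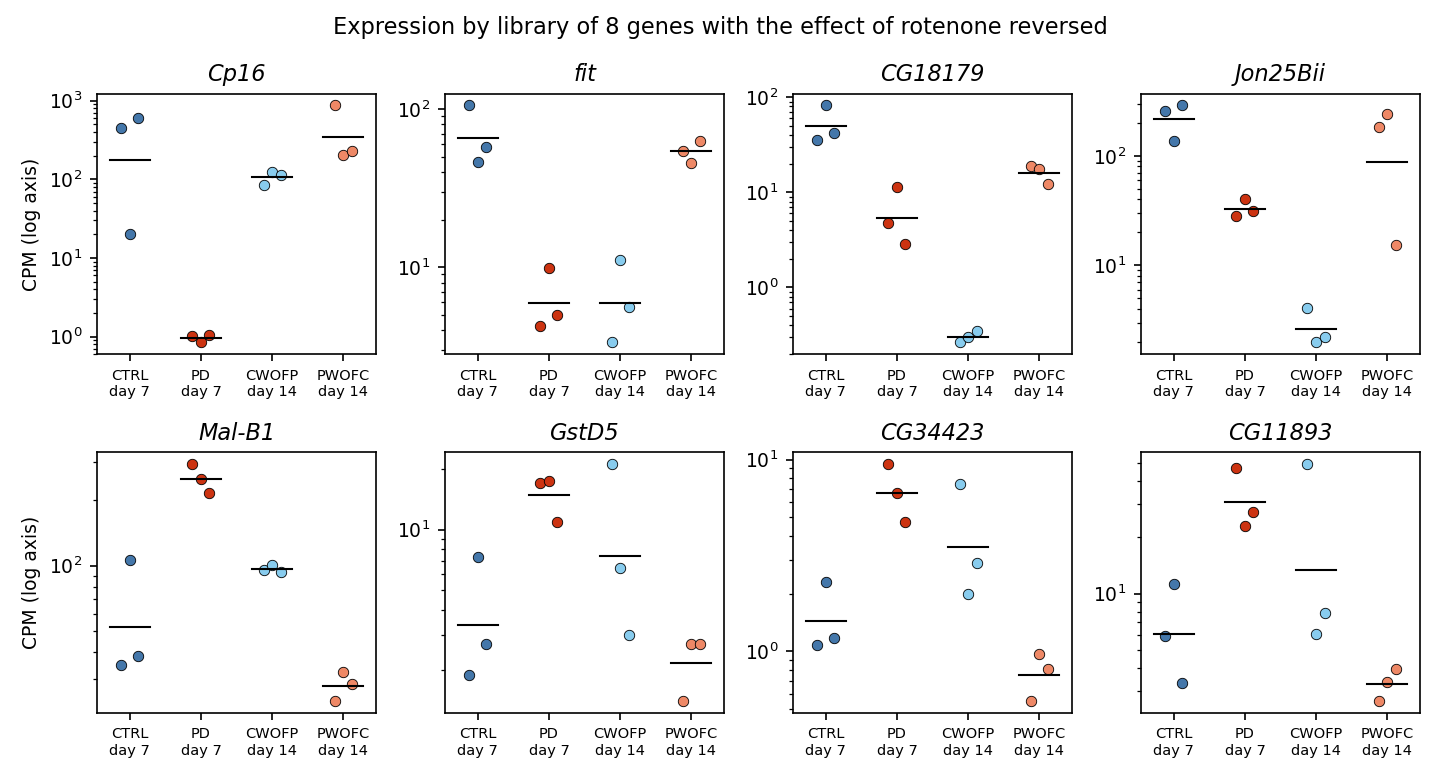
CPM of 8 reversed genes in each of the 12 libraries on a log axis, 1 point per library, with a line at the geometric mean of each group. Cp16, fit, CG18179 and Jon25Bii were lower in PD than in CTRL and higher in PWOFC than in CWOFP, and Mal-B1, GstD5, CG34423 and CG11893 took the opposite course.

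Of the 79 genes that were called on both days, 67 were lower in PD and higher in PWOFC, and 12 the other way. Among the 79 were 10 genes of the follicle cells and the eggshell (Vm26Aa, Vm26Ab, Vm34Ca, Vm32E, Vml, psd, ndl, Pxt, wbl and tj) and 17 that act in the entry of proteins into the endoplasmic reticulum (ER), their folding, and transport to the Golgi. Both sets were picked after their values were seen and have no count over all genes beside them, and the 17 had interactions of 0.90 to 1.49. The latter included Sec61alpha, the channel through which proteins enter the ER (-0.72 on day 7, 0.77 on day 14, interaction 1.49 ± 0.18, adjusted p = 0.0018), TRAM, Srp68, Srp72, the folding enzymes Pdi and ERp60, and Mtp, which loads lipid onto lipoproteins. The gene apolpp, the precursor of the main lipoprotein of fly blood, was also called on both days, with mean levels of 2778 CPM in CTRL, 1501 in PD, 1075 in CWOFP and 2224 in PWOFC.

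The ER chaperone list of 14 genes also held Droj2 and the stress regulators PEK, Ire1, crc and Xbp1. Of the 14, 10 were called higher (against 23.4% of all genes) and none lower, with medians of -0.41 on day 7 and 0.46 on day 14. PEK was among the 10, while Ire1, Droj2, crc and Xbp1 were not called, and Xbp1 had an interaction of -0.32. Pdi was at 808.2, 836.5 and 830.2 CPM in CTRL and 654.4, 654.7 and 558.2 in PD, and at 565, 599.7 and 522.2 CPM in CWOFP and 923.6, 931.7 and 885.8 in PWOFC. These groups did not overlap on either day although the change was small, with an interaction of 1.11 ± 0.17, adjusted p = 0.0036. Hsc70-3, the main ER chaperone (BiP), had 1.69 ± 0.30, adjusted p = 0.006. The 20S and 19S subunits of the proteasome had 19 of 32 genes called higher (against 23.4% of all genes) with a median interaction of 0.55, of which Rpn2 was the highest at 1.16. That count was 7 without PD replicate 1, 11 without PD replicate 3, 8 with the roX1 covariate and 3 by upper-quartile scaling.

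Glycolysis had 7 of 14 genes called higher and 2 lower, against 23.4% and 13.8% of all genes. Gapdh2 was at 1025, 845.7 and 1124 CPM in CTRL, 669.2, 699.1 and 652.2 in PD, 802.4, 933.8 and 829.3 in CWOFP and 1303, 1233 and 1095 in PWOFC, an interaction of 1.07 ± 0.20, adjusted p = 0.0068. Lactate dehydrogenase, Ldh, which regenerates NAD+ from NADH, was called lower, as was the hexokinase gene Hex-C at -0.85. It was at 53.4, 68.1 and 44.3 CPM in CTRL and 139.3, 97.4 and 94.0 in PD, and at 65.0, 54.4 and 69.9 CPM in CWOFP and 35.8, 30.6 and 53.3 in PWOFC. The 2 groups of each day did not overlap, and the interaction was -1.66 ± 0.33, adjusted p = 0.0078. The count of 7 was 3 without PD replicate 1, 4 without PD replicate 3, 3 with the roX1 covariate and 1 by upper-quartile scaling. Over all genes the higher calls went from 2997 to 886 without PD replicate 1, 1134 with the roX1 covariate and 1276 by upper-quartile scaling.

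Digestive enzymes of the gut reversed in both directions. Of the 16 Jonah proteases, 12 were called higher (against 23.4% of all genes) and none lower, and 11 of those reversed. Among the 11, Jon99Ci had a day 7 effect of only -0.02, which was not called and was 0.08 with the roX1 covariate. Without PD replicate 1, 8 of the 16 were called higher. The medians of the 16 were -0.70 on day 7 and 1.92 on day 14, so that this family had a larger effect on day 14. Jon25Bii (2L, 4952243 to 4953136) was at 255.7, 135.3 and 289 CPM in CTRL, 28.1, 40.5 and 31.5 in PD, 4.05, 1.98 and 2.24 in CWOFP and 182.4, 241.9 and 15.5 in PWOFC. Its interaction was 8.49 ± 1.17, adjusted p = 0.0039, and that of its neighbour Jon25Bi was 7.88 ± 1.39, adjusted p = 0.0076. In both genes PWOFC replicate 3 was far below the other 2 libraries of its group yet above all CWOFP libraries. The much more abundant Jon65Aiii was at 4102, 4784 and 3416 CPM in CTRL, 3372, 3077 and 2222 in PD, 956, 1189 and 924.3 in CWOFP and 2861, 2424 and 2276 in PWOFC, with an interaction of 1.81 ± 0.27, adjusted p = 0.0036.

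The lowest adjusted p of the whole comparison, 0.00074, belonged to CG18179 (3L, 9639271 to 9640140), a gene for a predicted serine protease. It was at 35.3, 82.0 and 41.6 CPM in CTRL, 4.81, 11.45 and 2.86 in PD, 0.26, 0.30 and 0.35 in CWOFP and 18.8, 17.6 and 12.1 in PWOFC, an interaction of 8.75 ± 0.75. The adjacent CG18180 was at 841.6, 1146 and 983.2 CPM in CTRL and 245.8, 595 and 362.9 in PD, then at 38.6, 17.0 and 39.5 in CWOFP and 479.2, 449.2 and 237.3 in PWOFC. Both were among the genes that stayed called with the FMT groups, CG18179 at 6.42 (adjusted p = 0.023) and CG18180 at 3.64 (adjusted p = 0.03). In these proteases the CWOFP level was the lowest of the 4 groups, and PWOFC lay below or near CTRL. Of 11 trypsins, 3 were called higher, a share near the 23.4% of all genes, and 5 without PWOFC replicate 3. They were thetaTry, deltaTry and gammaTry, at 2.21, 3.86 and 3.93, and deltaTry and gammaTry are near-identical copies whose reads cannot be assigned with certainty.

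The lysosomal alpha-mannosidases were all called higher, 6 of 6, of which 4 reversed, and their effect lay almost wholly on day 14. Their median was -0.36 on day 7 and 3.05 on day 14. LManIV was at 4.81, 5.12 and 10.7 CPM in CTRL, 2.11, 2.37 and 5.22 in PD, 0.13, 0 and 0 in CWOFP and 2.66, 5.02 and 2.35 in PWOFC, with an interaction of 7.17 whose size depends on the near-zero CWOFP libraries. Other digestive genes called higher were the predicted astacin-type metalloprotease CG15253 at 5.19 and the predicted aspartic protease CG31928 at 5.18, the latter no longer called with the roX1 covariate (adjusted p = 0.077). The cathepsin-like CtsL3 had 4.90 ± 1.49, adjusted p = 0.03, and was at 117.7 CPM in CTRL replicate 2 against 8.50 and 3.43 in the other CTRL libraries, and its adjusted p was 0.13 with the roX1 covariate.

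Maltases, which split sugars in the gut, took the opposite course to the proteases. Of 13 maltases and amylases, 7 were called lower (against 13.8% of all genes) and 2 higher, and the day 7 effect (median 1.09) was larger than that of day 14 (median -0.20). Mal-B1 (2L, 11847226 to 11849169) was at 34.9, 106.7 and 38.3 CPM in CTRL and rose to 294.2, 249.8 and 215.1 in PD, then was at 95.7, 101 and 93.8 in CWOFP and fell to 23.9, 32.4 and 28.6 in PWOFC. It was called on both days and had an interaction of -3.85 ± 0.49, adjusted p = 0.0018. Mal-A1 was at 611.2, 961.7 and 537.4 CPM in CTRL and 2805, 2382 and 2339 in PD, and at 281.1, 525.2 and 417.3 in CWOFP and 180.8, 353.9 and 422 in PWOFC, where the groups overlapped. Its interaction of -2.19 ± 0.45 (adjusted p = 0.0087) came from day 7. With the roX1 covariate 3 of the 13 were called, all lower.

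Detoxification genes were called in both directions. Of 91 cytochrome P450 and glutathione S-transferase genes, 24 were called lower and 10 higher, against 13.8% and 23.4% of all genes, and with the roX1 covariate 20 and 5, against 4.19% and 8.85%. Cyp6w1 was at 79.8, 102.9 and 70.3 CPM in CTRL and 239.6, 241.1 and 242.4 in PD, then at 104.3, 113.3 and 83.4 in CWOFP and 56.2, 45.3 and 98.9 in PWOFC, with an interaction of -2.10 ± 0.35, adjusted p = 0.0053. The glutathione transferase GstD5 was at 1.90, 7.28 and 2.70 CPM in CTRL, 17.1, 17.4 and 10.9 in PD, 21.3, 6.43 and 2.99 in CWOFP and 1.41, 2.71 and 2.71 in PWOFC, with -4.09 ± 0.94, adjusted p = 0.011. Of 31 UDP-glycosyltransferases, which attach sugars to small molecules, 9 were called lower and 3 higher, against 13.8% and 23.4% of all genes. Ugt37A2 had the lowest interaction of these at -3.98. It rose from 3.92, 6.01 and 5.79 CPM in CTRL to 48.3, 58.8 and 26.3 in PD, with 22.4, 21.8 and 8.62 in CWOFP and 9.19, 6.81 and 12.4 in PWOFC, where the groups overlapped. Without CTRL replicate 2 the lower P450 and transferase genes numbered 43 and without CTRL replicate 3 they numbered 14, and the higher ones numbered 4 without PD replicate 1 and 6 without PD replicate 3 or PWOFC replicate 1. The lower UDP-glycosyltransferases numbered 5 without CTRL replicate 1, PD replicate 1 or PWOFC replicate 1, and the higher ones 1 without PD replicate 1.

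Receptor and neuropeptide genes were called lower and not higher. Of 87 receptors for neurotransmitters and neuropeptides, 35 were called lower (against 13.8% of all genes) and 0 higher, with medians of 0.45 on day 7 and -0.49 on day 14. The pyrokinin receptor gene PK2-R2 was at 0.97, 0.99 and 0.56 CPM in CTRL, 1.80, 2.05 and 2.40 in PD, 4.93, 2.03 and 2.11 in CWOFP and 0.60, 1.08 and 0.99 in PWOFC, with no overlap on either day and an interaction of -3.04 ± 0.57, adjusted p = 0.007. GluRIIA, a glutamate receptor subunit of the neuromuscular junction, was at 7.14, 5.86 and 5.29 CPM in CTRL, 11.3, 9.0 and 10.9 in PD, 11.54, 8.58 and 10.1 in CWOFP and 5.62, 5.94 and 5.86 in PWOFC, with -1.56 ± 0.27, adjusted p = 0.0055. Of 28 neuropeptides, 7 were called lower, against 13.8% of all genes, with medians of 0.77 and -0.04. That count was 2 without CTRL replicate 3, PD replicate 1 or PWOFC replicate 1, 3 without CTRL replicate 1 or PWOFC replicate 2, and 4 without CWOFP replicate 3. Of 25 general neuronal and synaptic markers VAChT and Rab3 were called, both lower, with 5 lower without CTRL replicate 1 or CWOFP replicate 2 and 1 without most other libraries. The 4 markers of nervous tissue had a median sum of 138.7 CPM in CTRL, 218.6 in PD, 73.1 in CWOFP and 61.9 in PWOFC, and their part in the receptor result was not tested. The receptor count was 20 without PD replicate 1, 20 without PWOFC replicate 1, 21 without CTRL replicate 3, 23 without CWOFP replicate 3, 8 with the roX1 covariate and 1 with all 18 libraries in the fit.

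Of 9 genes of dopamine synthesis and transport, 2 were called lower and 0 higher, against 13.8% and 23.4% of all genes. The count was 1 lower without CTRL replicate 1, CTRL replicate 3, CWOFP replicate 3, PD replicate 1, PD replicate 3, PWOFC replicate 1 or PWOFC replicate 2. The 2 genes were Ddc, the decarboxylase that makes dopamine, and e (ebony), which couples dopamine to beta-alanine. Ddc was at 28.8, 32.4 and 28.5 CPM in CTRL, 50.8, 38.9 and 46.2 in PD, 43.3, 21.4 and 31.4 in CWOFP and 19.5, 20.7 and 25.3 in PWOFC, with an interaction of -1.15 ± 0.31, adjusted p = 0.017. The gene e had -3.16 ± 1.00, adjusted p = 0.033, and its CWOFP libraries spread from 2.89 to 47.5 CPM. Tyrosine hydroxylase, ple, had -1.29 with an adjusted p of 0.072. Of 14 fly counterparts of genes for familial parkinsonism and mitophagy, 5 were called higher, against 23.4% of all genes. They were Drp1, iPLA2-VIA, Vps35, Synj and aux, the last at 0.85. The count was 0 with the roX1 covariate, 0 without PD replicate 1 or PD replicate 2, and 0 higher with 1 lower by upper-quartile scaling.

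The olfactory, muscle and testis lists also had lower calls, where 13.8% of all genes were called lower and 23.4% higher. With the roX1 covariate 4.19% of all genes were called lower. Of 32 odorant-binding proteins, small carriers in sensory and other fluids, 11 were called lower and 2 higher, and 8 lower with the roX1 covariate. Obp19d was at 104.4, 143.9 and 105.4 CPM in CTRL, 167.1, 212.8 and 183.6 in PD, 94.6, 96.4 and 105.5 in CWOFP and 43.1, 49.4 and 52.5 in PWOFC, called on both days with an interaction of -1.70 ± 0.22, adjusted p = 0.0018. The count was 7 without CTRL replicate 3 or PWOFC replicate 1. Of 28 sarcomere genes, 14 were called lower and none higher, with medians of 0.55 and -0.65, and 4 with the roX1 covariate. The muscle ubiquitin ligase gene tn was at 90.6, 84.1 and 80.6 CPM in CTRL, 143.4, 119.4 and 152.6 in PD, 171.3, 113.4 and 209.2 in CWOFP and 71.3, 91.1 and 98.3 in PWOFC, with -1.62 ± 0.29, adjusted p = 0.0061. The sarcomere count was 9 without CWOFP replicate 3, the library with high Act88F, 8 without CTRL replicate 1, 7 without PD replicate 1, 6 without CTRL replicate 3 and 5 without PWOFC replicate 1.

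Of 42 testis genes, 23 were called lower (against 13.8% of all genes) and none higher, with medians of 0.65 on day 7 and -0.55 on day 14. The sperm tail gene Mst87F was at 27.4, 86.1 and 53.9 CPM in CTRL, 130.7, 120.4 and 88.3 in PD, 52.6, 58.1 and 66.7 in CWOFP and 17.3, 36.3 and 22.2 in PWOFC, with an interaction of -2.25 ± 0.50, adjusted p = 0.011. With the roX1 covariate the median interaction of the testis list went from -1.23 to -0.46 and the calls from 23 to 5, while the median of the vitelline membrane list was 4.26 without and 4.63 with it. The testis count ranged from 12 to 35 with single libraries left out, being 12 without CTRL replicate 3, CWOFP replicate 3, PD replicate 1 or PWOFC replicate 1, 13 without CTRL replicate 1 and 35 without CWOFP replicate 1.

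**Figure D5:**
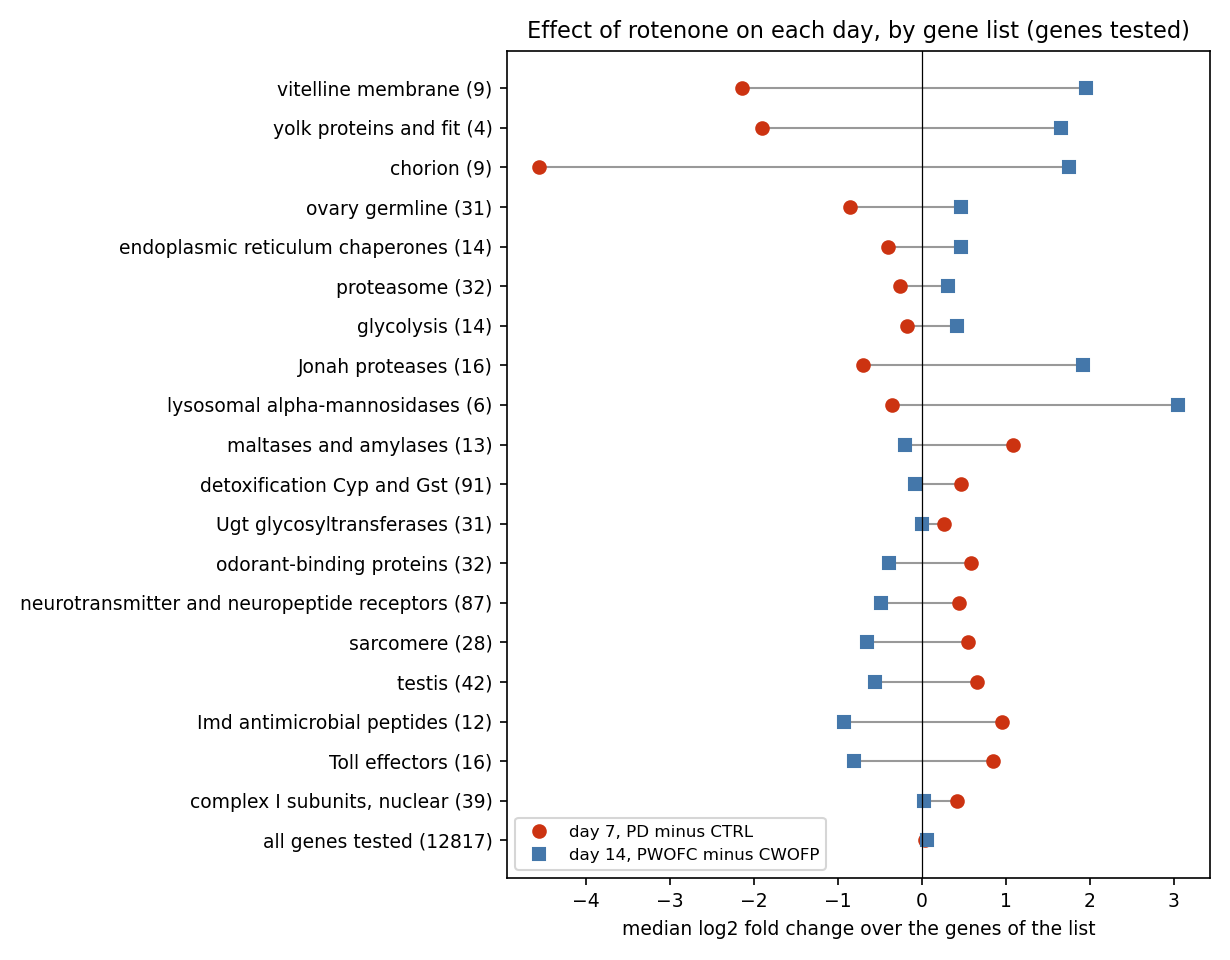
Median log2 fold change of rotenone over the tested genes of each list, on day 7 (circles, PD minus CTRL) and on day 14 (squares, PWOFC minus CWOFP), with the number of genes tested in brackets. Eggshell, yolk, germline, ER, proteasome, glycolysis, Jonah and mannosidase lists lie left of 0 on day 7 and right of it on day 14, most other lists do the opposite, and all 12817 genes lie near 0 on both days.

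Antimicrobial peptide and Toll effector genes had lower calls and no higher ones, where 13.8% of all genes were called lower and 23.4% higher. Of 12 antimicrobial peptide genes of the Imd pathway, 3 were called lower (AttD, Def and CecA1), with medians of 0.95 and -0.93. Of 16 Toll effectors 3 were called lower (BomS6, BomBc2 and BomT3), a share near the 13.8% of all genes, with medians of 0.84 and -0.81. Defensin, Def, was at 7.80, 8.66 and 2.98 CPM in CTRL, 25.1, 27.6 and 28.2 in PD, 17.7, 5.69 and 16.5 in CWOFP and 5.17, 6.45 and 10.9 in PWOFC, with -2.87 ± 0.63, adjusted p = 0.01. These counts moved with single libraries, the Imd list to 6 without PWOFC replicate 3, and the Toll list to 11 without PWOFC replicate 3, 8 without CTRL replicate 2, 7 without CWOFP replicate 2, 1 without CTRL replicate 3 and 0 without CTRL replicate 1, PD replicate 1 or PWOFC replicate 1.

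Heat shock genes were called in both directions. Of 16, 6 were called lower, against 13.8% of all genes. They are Hsp68, Hsp67Bc and 4 of the 6 inducible Hsp70 copies (Hsp70Ba, Hsp70Bb, Hsp70Bbb and Hsp70Bc). Hsp70Aa and Hsp70Ab had -2.23 and -2.18 with adjusted p of 0.12 and 0.094. The 4 called higher, a share near the 23.4% of all genes, were Hsp83, Hsp26, Hsp27 and the ER chaperone Hsc70-3. Hsp26 was at 502.2, 380.3 and 695 CPM in CTRL, 169.3, 327.2 and 229.6 in PD, 428.9, 463.9 and 472.9 in CWOFP and 891.1, 774.6 and 608.5 in PWOFC, with an interaction of 1.86 ± 0.36, adjusted p = 0.0076. Hsp70Bbb was at 0.89, 0.39 and 0.56 CPM in CTRL, 3.48, 2.25 and 3.54 in PD, 9.21, 1.42 and 2.20 in CWOFP and 1.51, 0.72 and 2.75 in PWOFC, with -3.67 ± 0.95, adjusted p = 0.015. The Hsp70 genes are near-identical copies and their counts cannot be told apart with certainty. The 6 lower heat shock calls were 3 without CTRL replicate 3 or PWOFC replicate 1. The metallothionein MtnA, a metal-binding protein of the gut, was lower at -2.26 ± 0.48, adjusted p = 0.0092, and MtnE was lower at -2.51, adjusted p = 0.034. The other members of that list were not called, with -0.85 for MtnC, -0.76 for MtnD, 0.17 for MtnB and 0.57 for the regulator MTF-1. Its lower calls ranged from 1 to 4 with single libraries left out.

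Several of the genes with the lowest interaction have no well-known function. The non-coding RNA lncRNA:CR44138 had -5.83 ± 1.25, adjusted p = 0.011. It was at 6.17, 17.5 and 7.20 CPM in CTRL, 97.8, 88.7 and 46.7 in PD, 206.8, 40.4 and 40.1 in CWOFP and 4.27, 6.5 and 26.9 in PWOFC, so that no libraries overlapped on either day. CG34423 had -4.57 ± 0.72, adjusted p = 0.0041, and was at 1.09, 2.30 and 1.18 CPM in CTRL, 9.50, 6.71 and 4.71 in PD, 7.44, 1.98 and 2.90 in CWOFP and 0.55, 0.97 and 0.81 in PWOFC. Hesr, a transcription factor gene of the HES family, had -4.36 ± 0.74, adjusted p = 0.0054, and the predicted lipase CG7367 had -4.03 ± 0.61, adjusted p = 0.0036. The cuticle gene Ccp84Ag had -4.97 ± 1.45, adjusted p = 0.023, but was at 10.4 CPM in CWOFP replicate 1 against 0.39 and 0.66 in CWOFP replicates 2 and 3. SdicC, 1 of a tandem group of near-identical sperm dynein genes, stayed under 1 CPM in every library and was no longer called with the roX1 covariate (adjusted p = 0.099).

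A set of genes of early neural development was high in a single group. Of 14 Enhancer of split and Bearded genes, targets and modulators of Notch signalling that are strongly expressed in embryos, 9 were called higher and 1 lower, against 23.4% and 13.8% of all genes. E(spl)mgamma-HLH was at 0.08, 0.11 and 0.22 CPM in CTRL, 0.04, 0 and 0.08 in PD, 0.26, 0 and 0.26 in CWOFP and 5.32, 1.74 and 5.05 in PWOFC. Tom was at 0, 0 and 2.25 CPM in CTRL, 0.04, 0.04 and 0.25 in PD, 0.04, 0.04 and 1.89 in CWOFP and 13.6, 7.22 and 18.1 in PWOFC. The call of an opposite effect on day 7 rests on levels near 0 in both CTRL and PD, and the fitted day 7 effect was not called for any of the 14. E(spl)mgamma-HLH could enter the test only through its PWOFC libraries, the group in which it was high. The filter thus favoured higher calls of such genes, and the share of 9 of 14 against 23.4% is no support. With at least 10 counts required in all 12 libraries, the median interaction of the list went from 5.88 to -0.16. The 9 calls were 2 with the roX1 covariate, 0 with all 18 libraries, 2 without CTRL replicate 3, 3 without PD replicate 1 or PD replicate 2 and 5 without PWOFC replicate 1.

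For the subunits of complex I, the target of rotenone, the calls depended on CTRL replicate 2. Of 39 nuclear genes for complex I subunits, 0 were called by edgeR (8 at an unadjusted p under 0.05) and 4, all lower, by DESeq2, with medians of 0.41 on day 7 and 0.03 on day 14. Without CTRL replicate 2, 19 of the 39 were called lower, and without CWOFP replicate 1, PD replicate 3 or PWOFC replicate 2 there were 5, 4 and 2. Leaving out CTRL replicate 2 also raised the lower calls over all genes, from 1763 to 2413. Of 7 mitochondrial complex I genes, 0 were called by edgeR (1 at an unadjusted p under 0.05), 1, higher, by DESeq2, and 1, lower, without CTRL replicate 2. The cytosolic ribosomal proteins had 2 of 91 called higher and 4 lower, against 23.4% and 13.8% of all genes, with a median interaction of -0.43. The lower count was 31 without CTRL replicate 2. It was 0 to 1 without CTRL replicate 1, CTRL replicate 3, CWOFP replicate 2, PD replicate 1, PD replicate 2, PWOFC replicate 1 or PWOFC replicate 3. None of the 4 Turandot genes was called by edgeR or DESeq2 (0 at an unadjusted p under 0.05), and their median interaction was 2.35 with CTRL replicate 2, which was high in them, and -2.86 without it, when 3 were called lower.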

How the data were processed

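Whole-fly poly(A) RNA was sequenced in 24 samples, of which 12 libraries were compared here. Per the study's methods, the authors trimmed reads with cutadapt after FastQC, aligned them to dm6 with HISAT2 and counted them per gene with featureCounts. The submitters' processing notes also name StringTie 1.3.1 and DESeq2 1.36.0. The deposited table holds raw counts per gene, not normalized. How strand and multiply mapped reads were treated is not given in the sources used here, so overlapping genes (among them CG18179, CG18180, fit, dec, Mal-B1, CG34423, CG7367, Hesr and lncRNA:CR44138) and near-identical copies are uncertain. Gene names and positions came from the BDGP6.54 annotation, whose coordinates are those of dm6, and 55 identifiers had none. The 6 columns of the FMT groups entered alternatives only, and 6 further samples given microbiota from patients were not analysed here.

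Counts were filtered with filterByExpr, scaled by TMM and fitted with edgeR 4.0.16 in R 4.3.3 (robust quasi-likelihood test, 4 group means, 12 libraries), and the interaction was tested as a contrast with Benjamini-Hochberg adjustment. The second fit added roX1 log2 CPM (prior count 2). Alternatives were DESeq2 1.42.0, other scalings and filters, a replicate block, the 18 libraries in 1 fit, covariates, and leaving out each library. Functional lists are described by counts and medians. The members and lists were chosen with earlier results of these data known. Genes were named by rule: reversed genes with at least 10 counts in every library of a group and no overlap on either day, the 12 highest and the 12 lowest by interaction, 6 each with the roX1 covariate, the roX RNAs, and up to 4 highest and 4 lowest members of each list. Genes named outside it are examples of a list chosen after their values were seen. The scripts were tested on simulated data.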

Additional observations from a re-analysis of the deposited data

Results flagged for a closer look

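The effect of rotenone differed between day 7 and day 14 by a test of the difference itself, the interaction, in 4760 genes. Of the 24 genes named by rule, the interaction was above 0 in 12, at 10.55 for Cp16, 8.95 for Cp19, 8.75 for CG18179, 8.49 for Jon25Bii, 7.88 for Jon25Bi, 6.48 for fit, 6.23 for CG9988, 5.19 for CG15253, 5.18 for CG31928, 4.94 for dec, 4.92 for CG18180 and 4.90 for CtsL3. It was below 0 in the other 12, at -5.83 for lncRNA:CR44138, -4.97 for Ccp84Ag, -4.90 for CG11893, -4.57 for CG34423, -4.51 for CG14397, -4.36 for Hesr, -4.33 for SdicC, -4.12 for CG34040, -4.09 for GstD5, -4.03 for CG7367, -3.85 for Mal-B1 and -3.77 for lncRNA:CR43416. Groups of 3 libraries are too small to look for single outlying libraries by a fixed limit.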

How the results depend on the processing

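Of 4760 genes with a called interaction and 4710 reversed, the counts were 4587 and 4539 with RLE scaling, 4365 and 4325 with the upper quartile, 5576 and 5488 by DESeq2 in the 16158 genes it was fitted on (5537 and 5450 among the 12817), 4190 and 4150 with a replicate block, 2871 and 2839 beyond 1 on the log2 scale, 363 and 360 with 18 libraries in 1 fit, 0 and 0 with the yolk covariate, and 18 and 16 with the FMT groups, which were chosen after seeing the data. Leaving out single libraries gave 1676 (without PD replicate 1) to 5969 calls (without CTRL replicate 2), and 1663 to 5879 reversed genes. With the roX1 covariate, 1671 and 1659 became 2880 and 2849 by DESeq2, 1084 and 1080 with at least 10 counts in all 12 libraries, 73 and 71 with the replicate block, and 0 and 0 with the upper quartile or with yolk in place of roX1. Left-out libraries gave 14 (without PD replicate 2) to 4304 (without CTRL replicate 2) calls and 14 to 4266 reversed genes. The cause of these changes was not tested. Libraries were treated as unpaired, and correlations of the deviations of same-numbered libraries ran from -0.36 to 0.309. They were not compared with those of differently numbered libraries, so whether replicate numbers pair the libraries was not tested. Of 542 values of the 24 named genes under alternatives, 476 kept their call and direction, 65 lost the call, 23 of them with the yolk covariate and 20 with the FMT groups, and SdicC turned to 1.06 with the yolk covariate. Of 1035 list medians 52 changed sign, among them the sarcomere list, from -1.18 to 2.01 with the yolk covariate. Depth limited genes under about 1 CPM.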
